A study of Mus musculus with 43 samples.

Results

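Transcript levels of 10 receptors of the tumour necrosis factor (TNF) receptor family were followed in mouse embryonic fibroblasts (MEFs). The genes were Tnfrsf1a, Tnfrsf1b, Tnfrsf9, Tnfrsf10b, Tnfrsf11b, Tnfrsf12a, Tnfrsf21, Tnfrsf22, Tnfrsf23 and Fas, taken by symbol from both deposited tables. Each had 1 line in the FPKM table of 24327 symbols and 1 line in the TPM table of 25080 symbols. The set was chosen by family name and by the measured FPKM of Tnfrsf9, which was higher with Son siRNA than with control siRNA. The Son siRNA contrasts, and Tnfrsf9 in every siRNA comparison, are therefore described without a test. The series held 43 libraries in 13 groups, in 3 experiments. In the first, cells received Son siRNA or control siRNA and then tunicamycin or DMSO, with 4 libraries in each of 4 groups. In the second, cells for CRISPR activation (CRISPRa) carried a Son sgRNA or a control sgRNA, again with tunicamycin or DMSO, and each of 4 groups had 3 libraries. The genotype label of the Son sgRNA samples is Son overexpression. In the third, WT cells were kept for 24 hours in 3 µM nintedanib, 1 µM ponatinib, 3 µM proflavine hemisulfate, 1 µM pyrvinium pamoate or DMSO, with 3 libraries in each of 5 groups. The labels state neither the dose and time of tunicamycin nor the Cas9 activator of the CRISPRa cells. The labels call the cells a MEF line and do not say whether libraries came from separate cultures, so p-values measure the spread between these libraries only.

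TNF receptor family proteins sit in the plasma membrane and bind trimeric ligands through cysteine-rich repeats outside the cell. Receptors with a death domain (Tnfrsf1a, Tnfrsf10b, Tnfrsf21 and Fas) can recruit caspase-8 or assemble ubiquitin-dependent NF-kappaB signalling, whereas Tnfrsf1b, Tnfrsf9 and Tnfrsf12a bind TRAF adaptors directly. Tnfrsf11b (osteoprotegerin) is secreted and traps the ligand RANKL, and Tnfrsf22 and Tnfrsf23 are mouse decoys that bind the death ligand TRAIL without a death domain. Tunicamycin blocks N-linked glycosylation and loads the endoplasmic reticulum with unfolded protein. Son is a large protein that helps build nuclear speckles and supports splicing. Nintedanib and ponatinib inhibit several tyrosine kinases, proflavine is a DNA-binding acridine dye, and pyrvinium is an anthelmintic dye.

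Son itself was read as a check of the labels. It had 20.8, 21.6, 23.1 and 21.5 FPKM in the Son siRNA libraries in DMSO, against 42.6, 43.1, 44.9 and 43.3 FPKM in the control siRNA libraries, a log2 fold change of -0.97. Libraries labelled Son sgRNA had, in DMSO, 51.9, 44.6 and 29.8 FPKM of Son, against 46.4, 47.5 and 48.3 FPKM in the control sgRNA libraries. The label of an activating guide was therefore not matched by a rise of Son, and library C of the Son sgRNA group in DMSO held the lowest value. That library also stood apart for several receptors, and the CRISPRa results with a call that it changes, or a value that it moves by over 1.5 times, are given with and without it. Of 9 fibroblast markers, 4 to 7 reached a mean of 1 in each group, and their sum, mostly Vim and Col1a1, was 854 to 2147 FPKM in the siRNA and CRISPRa libraries. Lum and Thy1 were at or near 0 in all groups. In the drug experiment the sum was 3195 to 3246 TPM with nintedanib, 3380 to 3546 TPM with ponatinib, 3308 to 3456 TPM with proflavine and 897 to 1058 TPM with pyrvinium, against 5107 to 5143 TPM in DMSO, and its part in the drug results was not tested. Fewer cells of a type and less RNA per cell cannot be told apart in such bulk samples.

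Gene positions were read from the GENCODE annotation of GRCm38 (mm10). Tnfrsf9 (chr4:150914562-150946102, plus strand) and Tnfrsf1b (chr4:145213463-145246870, minus strand) lie on chromosome 4, Tnfrsf12a (chr17:23675445-23677468, minus) and Tnfrsf21 (chr17:43016555-43089189, plus) on chromosome 17. Tnfrsf1a (chr6:125349362-125362484), Tnfrsf10b (chr14:69767472-69784411) and Fas (chr19:34290666-34327772) are on the plus strand and Tnfrsf11b (chr15:54250619-54278484) on the minus strand. Tnfrsf22 (chr7:143634806-143649661) and Tnfrsf23 (chr7:143665809-143685872) are neighbours on the minus strand of chromosome 7, 16147 bases apart. Of the distinct 50-base words in their annotated transcripts, 719 were common to both genes, which is 17.3% of those of Tnfrsf22 and 18.01% of those of Tnfrsf23. How the quantification divided reads from such stretches is not given, so the separate values of these 2 genes are uncertain. Tnfrsf22 and Tnfrsf23 also overlap the antisense gene E230032D23Rik on the opposite strand, over 14856 and 4806 bases. The annotated Tnfrsf9 locus likewise overlaps Camta1 on the opposite strand over 28781 bases. The libraries were stranded, but no source used here says whether the quantification kept strand, and Camta1 varied between 5.73 and 8.76 TPM over the drug libraries.

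The 250 bases before the transcription start were available from RefSeq (GRCm38.p6) for 7 of the 10 receptors. Those of Tnfrsf9 and Tnfrsf1b are shown because both transcripts followed one order over the drugs. Those of Tnfrsf12a and Tnfrsf23 are shown because both transcripts were highest with proflavine and lay below DMSO with ponatinib and pyrvinium, and that of Fas because it was the receptor that rose with tunicamycin in the siRNA experiment. Capitals mark matches, on either strand, to the AP-1 motif TGANTCA, the C/EBP-ATF motif TGATGNAA, the NF-kappaB (kB) motif or the SRF CArG box.
Tnfrsf9, inner start (chr4:150927749-150927998, plus strand): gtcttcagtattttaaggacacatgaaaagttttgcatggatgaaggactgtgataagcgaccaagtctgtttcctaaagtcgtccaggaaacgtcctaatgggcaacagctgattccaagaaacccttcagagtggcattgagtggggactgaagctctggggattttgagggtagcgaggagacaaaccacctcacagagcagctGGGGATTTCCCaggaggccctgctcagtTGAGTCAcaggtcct
Tnfrsf9, outer start (chr4:150919905-150920154, plus strand): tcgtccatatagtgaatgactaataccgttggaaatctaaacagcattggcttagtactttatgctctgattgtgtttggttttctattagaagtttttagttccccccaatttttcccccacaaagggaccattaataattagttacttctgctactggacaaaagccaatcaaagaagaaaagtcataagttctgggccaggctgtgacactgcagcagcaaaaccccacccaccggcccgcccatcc
Tnfrsf1b (chr4:145246871-145247120, minus strand): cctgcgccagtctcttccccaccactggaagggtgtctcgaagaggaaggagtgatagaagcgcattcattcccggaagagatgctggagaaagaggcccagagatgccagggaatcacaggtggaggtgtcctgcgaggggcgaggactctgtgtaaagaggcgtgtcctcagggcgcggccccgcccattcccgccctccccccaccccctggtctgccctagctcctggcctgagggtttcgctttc
Tnfrsf12a (chr17:23677450-23677699, minus strand): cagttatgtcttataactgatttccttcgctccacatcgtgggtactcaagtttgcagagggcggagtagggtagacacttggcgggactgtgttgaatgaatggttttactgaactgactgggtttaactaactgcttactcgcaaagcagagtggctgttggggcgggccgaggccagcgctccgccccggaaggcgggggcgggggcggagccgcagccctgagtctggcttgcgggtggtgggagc
Tnfrsf23 (chr7:143685876-143686125, minus strand): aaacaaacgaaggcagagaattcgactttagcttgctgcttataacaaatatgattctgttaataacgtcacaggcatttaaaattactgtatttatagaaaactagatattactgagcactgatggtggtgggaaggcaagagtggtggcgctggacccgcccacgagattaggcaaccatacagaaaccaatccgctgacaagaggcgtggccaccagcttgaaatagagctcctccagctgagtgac
Fas (chr19:34290409-34290658, plus strand): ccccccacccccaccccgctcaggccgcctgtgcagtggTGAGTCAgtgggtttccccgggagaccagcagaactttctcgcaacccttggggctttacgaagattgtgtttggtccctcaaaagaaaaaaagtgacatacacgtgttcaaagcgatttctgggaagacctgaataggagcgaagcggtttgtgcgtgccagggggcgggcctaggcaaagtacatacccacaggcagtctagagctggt
The window of the inner Tnfrsf9 start held 2 overlapping kB matches between 43 and 33 bases before the start and 1 AP-1 match 15 to 9 bases before it. Fas had 1 AP-1 match, 211 to 205 bases before its start, and the 4 other windows shown had no match to these letters. Of all 32851 RefSeq windows of this length, 3.90% held a kB match, 6.75% an AP-1 match, 1.47% a CArG box and 3.45% a TGATGNAA match. A match is a description of the letters and not evidence of binding.

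Tnfrsf12a, the receptor of TWEAK, had the highest level per length of the 10 receptors in every group but WT ponatinib. It averaged 287 ± 9.64 FPKM in control siRNA cells in DMSO (SD, n = 4), above 98.0% of the symbols tested there, and 345 ± 8.71 TPM in WT DMSO cells (SD, n = 3). Tnfrsf1a, the main TNF receptor of most cells, came next with 74.0 ± 0.998 FPKM and 164 ± 2.76 TPM in the same groups. After these 2, the order in WT DMSO cells was Tnfrsf10b (58.7 TPM), Tnfrsf1b (37.6 TPM), Tnfrsf9 (26.1 TPM), Tnfrsf23 (23.3 TPM), Fas (14.1 TPM), Tnfrsf22 (10.1 TPM) and Tnfrsf11b (2.58 TPM). Of these neighbours only Tnfrsf9 and Tnfrsf23 overlapped between libraries. Tnfrsf21 (death receptor 6) was lowest in all groups, from 0.0957 to 0.545 in FPKM or TPM over all libraries, and did not reach the mean of 1 required for the test. The other 9 receptors were tested in all 3 experiments, among 10883, 11218 and 12132 symbols.

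The baseline differed between experiments for several receptors. In control cells in DMSO, Tnfrsf9 had 32.7, 36.9 and 35.9 FPKM in the CRISPRa experiment and 8.48, 10.2, 10.2 and 9.94 FPKM in the siRNA experiment. Fas had 14.0, 14.9 and 14.9 FPKM in the CRISPRa controls and 3.87, 4.40, 4.92 and 3.87 FPKM in the siRNA controls. Tnfrsf12a lay the other way, at 122 ± 5.17 FPKM (SD, n = 3) in the CRISPRa controls. None of these 3 pairs of groups overlapped, but the share of all symbols that lie apart between these experiments was not computed. The 3 are examples with large gaps, and others lay closer, such as Tnfrsf1a with means of 77.2 FPKM in the CRISPRa controls and 74.0 FPKM in the siRNA controls. Cell stock, culture and library preparation cannot be told apart between experiments. The summed level of 5 epithelial markers also differed, at 0.531 to 0.843 FPKM in the CRISPRa controls and 11.5 to 14.7 FPKM in the siRNA controls, nearly all of it Krt18, a keratin of simple epithelia. The part of these markers in the receptor levels was not tested.

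**Figure D1:**
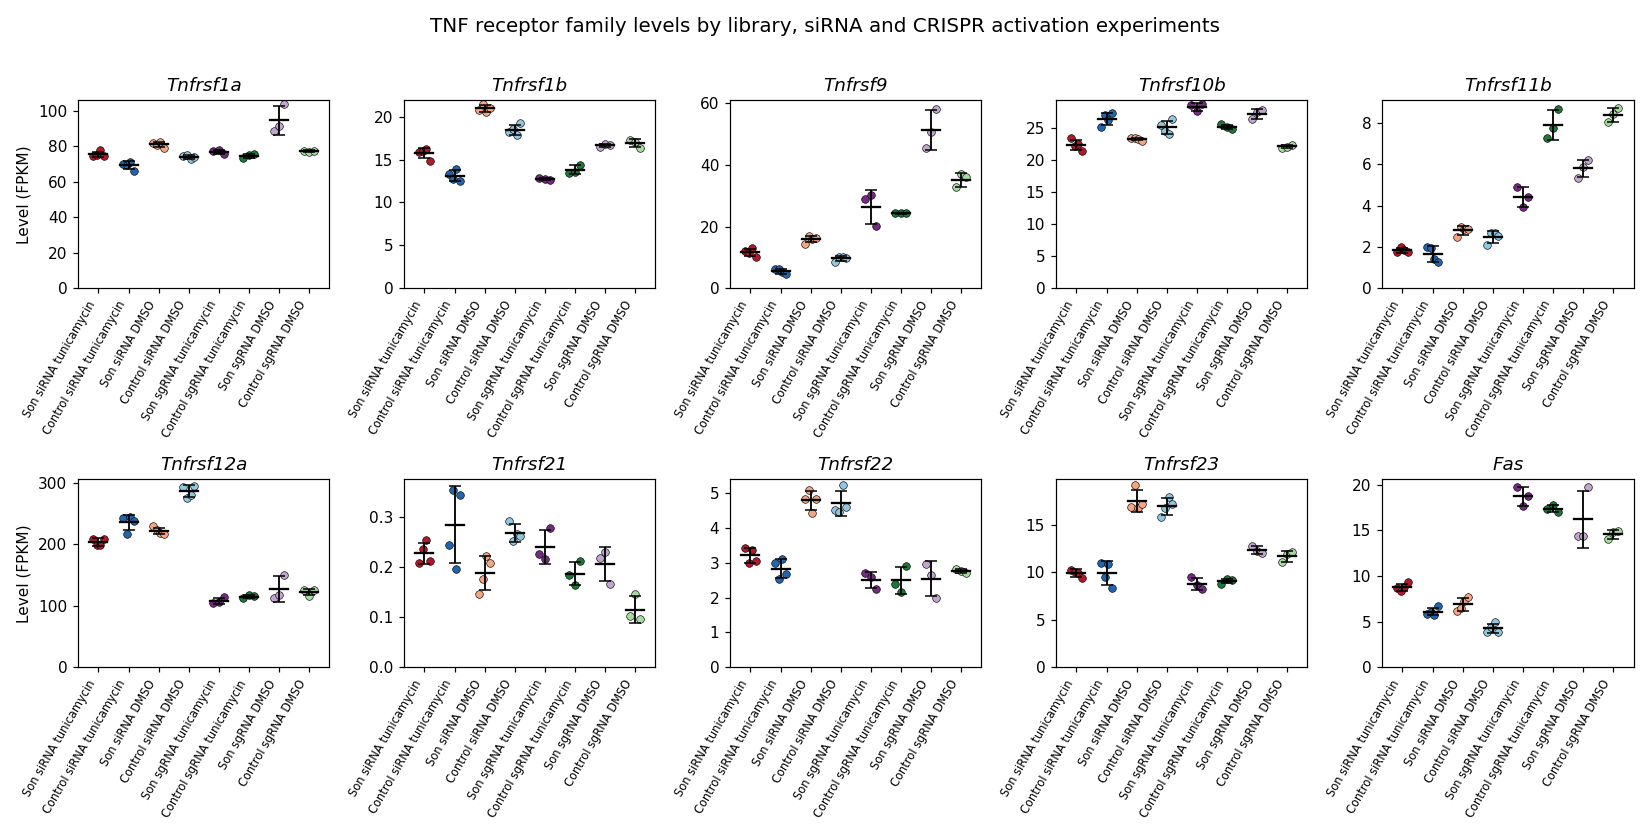
Each panel plots 1 receptor in FPKM for the 4 siRNA groups and the 4 CRISPRa groups. Points are libraries, the long bar is the mean and the error bars are 1 SD (n = 4 or 3). Tnfrsf9 lies at 4.53 to 17.0 FPKM in the siRNA libraries and at 20.2 to 58.3 FPKM in the CRISPRa libraries, and Fas is the receptor whose tunicamycin libraries all lie above its DMSO libraries for both siRNAs.

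With Son siRNA, Tnfrsf9 and Fas were the receptors with the largest differences from control siRNA. Tnfrsf9, a costimulatory receptor best known on activated T cells (4-1BB), had 14.5, 17.0, 15.8 and 16.2 FPKM in Son siRNA cells in DMSO, against 8.48, 10.2, 10.2 and 9.94 FPKM in control siRNA cells. In tunicamycin it had 12.01, 11.3, 13.1 and 10.2 FPKM in Son siRNA cells, against 6.09, 6.33, 5.31 and 4.53 FPKM in control siRNA cells. All Son siRNA libraries lay above all control libraries with either treatment, and the ratio of means was 1.64 in DMSO and 2.09 in tunicamycin. Ptprc, Cd3e and Tyrobp were at or near 0 in every group, with the highest group mean 0.0189 for Ptprc. The summed level of 14 leukocyte markers was 5.38 to 6.55 FPKM in Son siRNA cells and 6.18 to 7.32 FPKM in control siRNA cells in DMSO, nearly all of it Cd68. In tunicamycin it was 3.75 to 4.33 FPKM in Son siRNA cells and 5.72 to 6.61 FPKM in control siRNA cells.

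Fas, the receptor of Fas ligand, had 6.15, 6.53, 7.26 and 7.69 FPKM in Son siRNA cells in DMSO, against 3.87, 4.40, 4.92 and 3.87 FPKM in control siRNA cells. Tnfrsf12a was lower, with 229, 223, 218 and 217 FPKM in Son siRNA cells in DMSO, against 294, 276, 281 and 295 FPKM in control siRNA cells. Neither pair of groups overlapped. The 2 TNF receptors stood higher by smaller amounts, with ratios of 1.096 for Tnfrsf1a and 1.13 for Tnfrsf1b in DMSO. Tnfrsf10b, the single mouse receptor that signals death from TRAIL, had a ratio of 0.926 in DMSO and 0.847 in tunicamycin. Tnfrsf11b, Tnfrsf22 and Tnfrsf23 overlapped between the siRNAs in both treatments. Of all tested symbols, 38.0% did not overlap between the siRNAs in DMSO and 42.9% in tunicamycin, so groups that lie apart are common here. By the threshold used throughout (limma, Benjamini-Hochberg adjusted p below 0.05), 6 of 9 tested receptors would be called in DMSO and 6 of 9 in tunicamycin, where 36.0% and 51.0% of all tested symbols were called. As these contrasts chose the genes, nothing is read from those counts.

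Tunicamycin lowered most of the receptors in the siRNA experiment and raised Fas. With Son siRNA, 8 of 9 receptors were called, 1 higher and 7 lower, where 67.2% of all symbols were called. With control siRNA, 8 of 9 were called, again 1 higher and 7 lower, where 69.0% of all symbols were called. Both counts include Tnfrsf9, which the same libraries chose. Log2 fold changes were computed on FPKM + 1 or TPM + 1 and are given with their standard error (±) and the adjusted p from limma. The median of the 9 receptors was -0.39 with each siRNA, against -0.054 and -0.061 over all tested symbols. Of all 10883 symbols, 2840 were called higher and 4474 lower with Son siRNA, and 2891 higher and 4613 lower with control siRNA. The shares of receptors called lie above the shares of all symbols, but with so many symbols called the count alone says little. Fibroblast markers summed to 1430 to 1538 FPKM with Son siRNA in tunicamycin, against 2011 to 2087 FPKM in DMSO, and to 1191 to 1507 FPKM with control siRNA in tunicamycin, against 2081 to 2147 FPKM in DMSO. Between 5 and 6 of the 9 markers reached a mean of 1 in these groups, and their part in the receptor changes was not tested.

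Tnfrsf23 fell most with Son siRNA, to 10.3, 10.1, 9.96 and 9.37 FPKM in tunicamycin, against 16.9, 19.3, 16.8 and 17.2 FPKM in DMSO (log2 fold change -0.76 ± 0.067, adjusted p = 4.5e-08). With control siRNA, Tnfrsf23 had 10.99, 9.57, 10.9 and 8.35 FPKM in tunicamycin, against 15.9, 16.8, 17.997 and 17.2 FPKM in DMSO (log2 fold change -0.72 ± 0.067, adjusted p = 6.1e-08). No tunicamycin library reached the level of a DMSO library. Its neighbour Tnfrsf22 fell as well, with log2 fold changes of -0.46 with Son siRNA and -0.57 with control siRNA. Tnfrsf9 had 6.09, 6.33, 5.31 and 4.53 FPKM with control siRNA and tunicamycin, below all the DMSO values given above (log2 fold change -0.71 ± 0.085). With Son siRNA its log2 fold change was -0.42 ± 0.085, and the tunicamycin libraries again lay below all DMSO libraries. Both are given as a description, because the same libraries chose Tnfrsf9. Tnfrsf1b fell by 0.39 on the log2 scale with Son siRNA and by 0.47 with control siRNA, and Tnfrsf11b fell by 0.42 and 0.39.

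Fas had 8.64, 8.39, 8.77 and 9.32 FPKM with Son siRNA in tunicamycin, against 6.15, 6.53, 7.26 and 7.69 FPKM in DMSO (log2 fold change 0.31 ± 0.068, adjusted p = 0.000728). With control siRNA it had 5.89, 6.11, 5.71 and 6.68 FPKM in tunicamycin, against 3.87, 4.40, 4.92 and 3.87 FPKM in DMSO (log2 fold change 0.43 ± 0.068, adjusted p = 2.61e-05). It was the single receptor that passed the test upwards with either siRNA. Tnfrsf10b, a known target of the stress factor CHOP in human cells, had 25.1, 27.0, 26.3 and 27.2 FPKM with control siRNA in tunicamycin, against 25.5, 24.5, 24.1 and 26.3 FPKM in DMSO. Those groups overlapped and the change did not pass (log2 fold change 0.070 ± 0.033, adjusted p = 0.0738), although it did under median-ratio scaling (log2 fold change 0.13, adjusted p = 0.00420) and quantile normalization (0.095, adjusted p = 0.0197). With Son siRNA it was -0.054 ± 0.033 (adjusted p = 0.162). Tnfrsf12a and Tnfrsf1a fell by 0.28 and 0.094 on the log2 scale with control siRNA and by 0.12 and 0.10 with Son siRNA. Under median-ratio scaling and quantile normalization the Tnfrsf12a call with Son siRNA (adjusted p = 0.0520 and 0.368) and the Tnfrsf1a call with control siRNA (adjusted p = 0.182 and 0.117) were lost.

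The tunicamycin responses of the 2 siRNAs were then set against each other. Tnfrsf9 was not read in limma's test of the difference. None of the other tested receptors passed, where 1.68% of all symbols did. Among those others, Tnfrsf10b and Tnfrsf12a had an unadjusted p below 0.05 in that test, as did 2071 of all 10883 symbols. Nothing is read from that count. For Tnfrsf12a the difference was 0.16 ± 0.052 on the log2 scale (adjusted p = 0.11), and it passed under quantile normalization (adjusted p = 0.0410). For Fas it was -0.12 ± 0.10 (adjusted p = 0.511) and for Tnfrsf10b -0.12 ± 0.047 (adjusted p = 0.165). Tnfrsf9 differed by 0.29 ± 0.12, given as a description because the same libraries chose it.

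The same treatment was followed in the CRISPRa cells. With the Son sgRNA label, 5 of 9 receptors fell and none rose, where 49.4% of all symbols were called. With control sgRNA, 3 fell and 1 rose, where 38.3% were called. Of all 11218 symbols, 2549 were called higher and 2989 lower with the Son sgRNA label, and 2714 higher and 1581 lower with control sgRNA. Tnfrsf9 had 28.8, 30.2 and 20.2 FPKM with the Son sgRNA label in tunicamycin, against 45.3, 50.6 and 58.3 FPKM in DMSO (log2 fold change -0.95 ± 0.13, adjusted p = 0.000111). With control sgRNA it had 24.3, 24.2 and 24.2 FPKM in tunicamycin, against 32.7, 36.9 and 35.9 FPKM in DMSO (log2 fold change -0.52 ± 0.13, adjusted p = 0.00768). The groups did not overlap in either case. Tnfrsf9 was thus lower with tunicamycin in all 4 settings, of which the siRNA settings are a description only. Tnfrsf1b and Tnfrsf23 also fell in all 4, with log2 fold changes from -0.28 to -0.47 for Tnfrsf1b and from -0.33 to -0.76 for Tnfrsf23.

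Tnfrsf10b rose with tunicamycin in control sgRNA cells, to 25.5, 25.1 and 24.8 FPKM, against 21.9, 22.0 and 22.4 FPKM in DMSO (log2 fold change 0.18 ± 0.042, adjusted p = 0.00595). With the Son sgRNA label it was 0.057 ± 0.042 (adjusted p = 0.283). Fas was higher in every tunicamycin library of control sgRNA cells without passing (log2 fold change 0.24 ± 0.10, adjusted p = 0.0768), and passed when the control sgRNA groups were fitted alone (adjusted p = 0.000265). With the Son sgRNA label the Fas groups overlapped and the change did not pass (log2 fold change 0.21 ± 0.098, adjusted p = 0.0902). Without library C of the Son sgRNA group in DMSO, Fas passed in both sets. Its log2 fold change was then 0.36 (adjusted p = 0.000103) for the Son sgRNA label and 0.24 (adjusted p = 0.000966) for control sgRNA. The calls with tunicamycin then numbered 6 for the Son sgRNA label and 5 for control sgRNA. Tnfrsf12a had a tunicamycin log2 fold change of -0.22 ± 0.092 with the Son sgRNA label (adjusted p = 0.0628), and -0.095 (adjusted p = 0.127) without that library. For Tnfrsf22 with the Son sgRNA label it was -0.0029 with that library and -0.12 without it, and passed in neither case. Tnfrsf1a fell with the Son sgRNA label (log2 fold change -0.29 ± 0.058, adjusted p = 0.00164), and by 0.22 without that library (adjusted p = 0.000236). Fibroblast markers summed to 854 to 967.5 FPKM with the Son sgRNA label in tunicamycin, against 1347 to 1465 FPKM in DMSO, and to 1129 to 1189 FPKM with control sgRNA in tunicamycin, against 1513 to 1636 FPKM in DMSO. Their part in the receptor changes was not tested. No receptor passed in the test of the difference between the 2 responses, nor did any of the 11218 symbols (0%), of which 908 had an unadjusted p below 0.05. These 908 included 2 receptors, Tnfrsf1a (-0.24 ± 0.082, adjusted p = 0.6) and Tnfrsf9 (-0.43 ± 0.18, adjusted p = 0.6). Without library C the differences of Tnfrsf12a (-0.13 with it) and Tnfrsf22 (0.11 with it) were -0.0057 and -0.0066, and neither passed with or without it. The Fas difference was -0.024 with library C and 0.12 without it, and did not pass in either case.

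Libraries labelled Son sgRNA were compared with control sgRNA libraries. In DMSO, 3 receptors were higher and 1 was lower of 9, where 14.4% of all symbols were called (1022 higher and 593 lower). Tnfrsf11b, the secreted RANKL decoy, had 5.34, 5.85 and 6.19 FPKM in Son sgRNA libraries, against 8.05, 8.41 and 8.71 FPKM in control sgRNA libraries (log2 fold change -0.47 ± 0.082, adjusted p = 0.00333). In tunicamycin it had 4.90, 3.93 and 4.43 FPKM in Son sgRNA libraries, against 7.24, 7.76 and 8.66 FPKM in control sgRNA libraries (log2 fold change -0.71 ± 0.082, adjusted p = 0.000206). The groups were apart in both treatments. Tnfrsf10b was higher in DMSO, with 26.3, 27.4 and 27.7 FPKM in Son sgRNA libraries, against the control values above (log2 fold change 0.29 ± 0.042, adjusted p = 0.00123). Tnfrsf1a had 88.5, 91.3 and 104 FPKM in Son sgRNA libraries in DMSO, against 77.6, 76.7 and 77.5 FPKM in control sgRNA libraries (log2 fold change 0.29 ± 0.058, adjusted p = 0.00809). Tnfrsf9 was higher as well, with the DMSO values given above (log2 fold change 0.53 ± 0.13, adjusted p = 0.0181), and library C was highest for both. The Tnfrsf9 call was lost without control sgRNA library A (adjusted p = 0.0744) or C (0.0550), and the Tnfrsf1a call when these groups were fitted alone (0.0749). The FPKM total of a library ran from 381968 to 499908 in this experiment. Over the alternatives other than leaving out a library, the log2 fold change was 0.17 to 0.29 for Tnfrsf1a and 0.22 to 0.30 for Tnfrsf10b. For Tnfrsf9 it was 0.43 to 0.54 and for Tnfrsf11b -0.53 to -0.46. Without Son sgRNA library C the log2 fold changes were 0.44 for Tnfrsf9, 0.22 for Tnfrsf1a, 0.27 for Tnfrsf10b and -0.51 for Tnfrsf11b, and all 4 passed. Fas (0.13 with library C, -0.019 without it), Tnfrsf12a (0.046 with it, -0.081 without it) and Tnfrsf22 (-0.10 with it, 0.019 without it) passed in neither case. The summed level of 14 leukocyte markers was 6.45 to 10.7 FPKM in these Son sgRNA libraries, against 4.51 to 6.52 FPKM in control sgRNA libraries, mostly Cd68, with Ptprc at most 0.00183 FPKM on average and Cd3e and Tyrobp at 0. Epithelial markers (5 genes, mostly Krt18) summed to 1.65 to 2.27 FPKM in Son sgRNA libraries, against 0.531 to 0.843 FPKM in control sgRNA libraries. Fibroblast markers summed to 1347 to 1465 FPKM in Son sgRNA libraries, against 1513 to 1636 FPKM in control sgRNA libraries, and among them Col3a1 averaged 27.1 FPKM in Son sgRNA libraries and 95.8 FPKM in control sgRNA libraries. The part of these markers in the results was not tested.

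In tunicamycin 2 of 9 receptors were called, Tnfrsf11b lower and Tnfrsf10b higher, where 9.45% of all symbols were called. Tnfrsf10b had 28.5, 27.6 and 28.8 FPKM in Son sgRNA libraries, against 25.5, 25.1 and 24.8 FPKM in control sgRNA libraries (log2 fold change 0.16 ± 0.042, adjusted p = 0.0311). Its call was lost without any 1 of 8 libraries, the 6 control sgRNA libraries and Son sgRNA libraries A and C in tunicamycin (adjusted p from 0.0553 to 0.125). Tnfrsf9 had 28.8, 30.2 and 20.2 FPKM in Son sgRNA libraries in tunicamycin and did not pass (log2 fold change 0.10 ± 0.13, adjusted p = 0.753), with library C below all control libraries and the other 2 above them. Fibroblast markers summed to 854 to 967.5 FPKM in Son sgRNA libraries in tunicamycin, against 1129 to 1189 FPKM in control sgRNA libraries, and epithelial markers to 1.16 to 1.46 FPKM in Son sgRNA libraries, against 0.746 to 0.800 FPKM in control sgRNA libraries. Their part in the results was not tested.

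**Figure D2:**
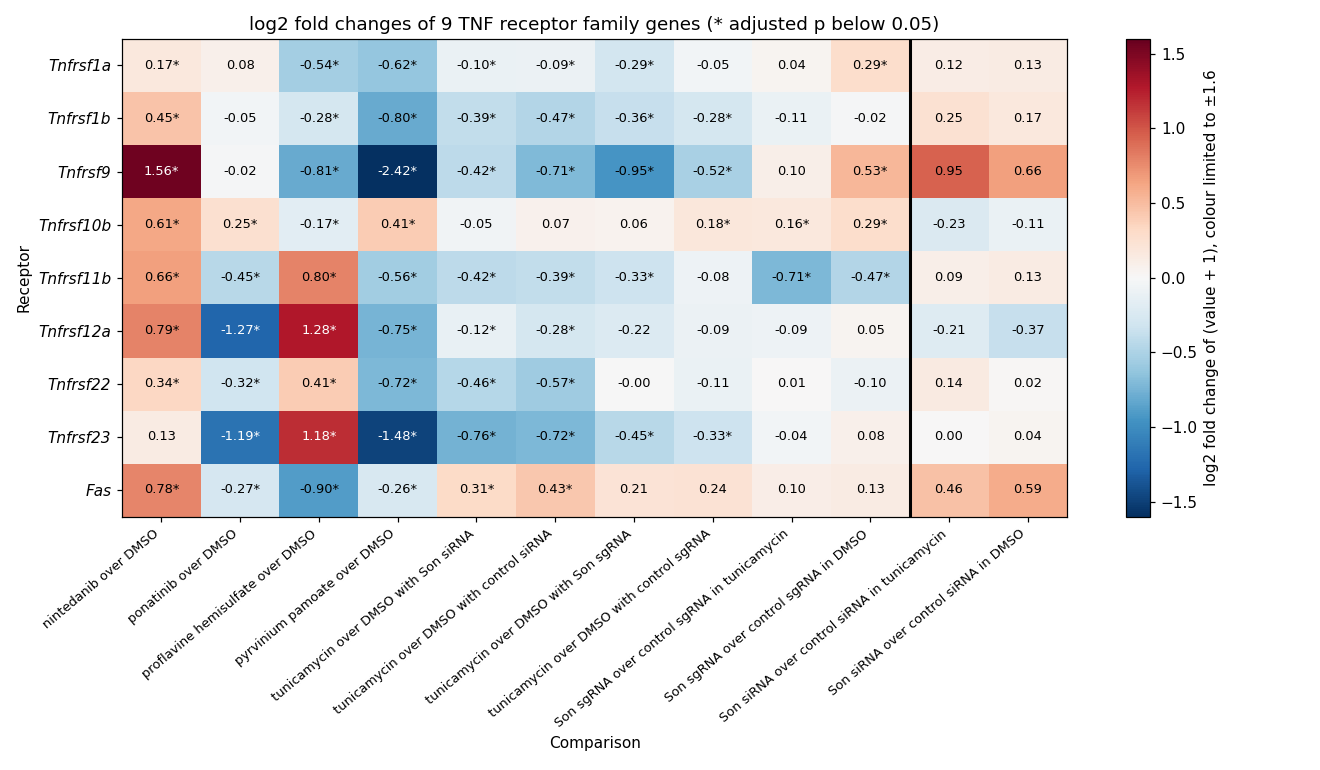
Rows are the 9 tested receptors, columns are comparisons, and each cell gives the log2 fold change of value + 1, coloured red for higher and blue for lower with the colour limited at ±1.6. An asterisk marks an adjusted p below 0.05 in limma. The columns right of the line are the Son siRNA contrasts that chose Tnfrsf9, shown with no test. Nothing is read from the Tnfrsf9 asterisks for tunicamycin with either siRNA, as the same libraries chose it. Tnfrsf9 ranges from -2.42 with pyrvinium to 1.56 with nintedanib.

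The 4 drugs were each compared with the same 3 DMSO libraries, so their results share that error. Nintedanib raised 8 of 9 receptors, where 56.4% of all symbols were called. Ponatinib raised 1 and lowered 5, where 62.5% were called. Proflavine raised 4 and lowered 5, where 70.1% were called, and pyrvinium raised 1 and lowered 8, where 77.3% were called. These shares count both directions. Of all 12132 symbols, 4163, 4987, 3367 and 4435 were called higher and 2682, 2596, 5143 and 4945 lower, in the same order of drugs. The median log2 fold change of the 9 receptors was 0.61 with nintedanib, -0.27 with ponatinib, -0.17 with proflavine and -0.72 with pyrvinium. Over all symbols the medians were 0.040, 0.097, -0.089 and -0.032 in the same order. Differences between drugs were not tested.

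Tnfrsf9 showed the widest range of the 9 receptors. It had 73.3, 84.6 and 78.7 TPM in nintedanib, against 27.0, 23.6 and 27.7 TPM in DMSO, a 3.02-fold higher mean (log2 fold change 1.56 ± 0.13, adjusted p = 8.08e-08). In pyrvinium it had 4.81, 4.87 and 2.81 TPM, below every DMSO library (log2 fold change -2.42 ± 0.13, adjusted p = 1.46e-10). Its mean of 4.16 TPM was at rank 8 of the 10 receptors with pyrvinium, where Fas, Tnfrsf22 and Tnfrsf23 lay above it. Proflavine gave 15.1, 14.7 and 13.5 TPM (log2 fold change -0.81 ± 0.13, adjusted p = 4.64e-05). Ponatinib gave 24.2, 25.6 and 27.3 TPM, overlapping DMSO, with a log2 fold change of -0.020 ± 0.13 (adjusted p = 0.904). The summed level of 14 leukocyte markers was 17.0 to 18.8 TPM in nintedanib, 16.1 to 19.3 TPM in ponatinib, 10.5 to 11.3 TPM in proflavine and 10.7 to 14.6 TPM in pyrvinium, against 6.06 to 6.88 TPM in DMSO, mostly Cd68. This sum was above DMSO with all 4 drugs. Only Cd68 and Lyz2 of the 14 reached a mean of 1 TPM in nintedanib, and Cd3e and Tyrobp were at 0 in all drug groups. Their part in the Tnfrsf9 level was not tested.

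Tnfrsf1b, the second TNF receptor, had 47.4, 55.8 and 52.6 TPM in nintedanib, against 38.1, 37.6 and 37.1 TPM in DMSO (log2 fold change 0.45 ± 0.057, adjusted p = 7.22e-06). It had 22.6, 20.4 and 20.5 TPM in pyrvinium (log2 fold change -0.80 ± 0.057, adjusted p = 4.22e-09) and 30.8, 31.0 and 30.5 TPM in proflavine (log2 fold change -0.28 ± 0.057, adjusted p = 0.00043). The order of the groups was the same as for Tnfrsf9, with nintedanib on top, ponatinib overlapping DMSO, then proflavine and pyrvinium at the bottom. Tnfrsf1a moved less in nintedanib, with 184, 185 and 186 TPM, against 161, 163 and 167 TPM in DMSO (log2 fold change 0.17 ± 0.041, adjusted p = 0.0021). It fell with proflavine (log2 fold change -0.54 ± 0.041, adjusted p = 1.72e-08) and with pyrvinium (log2 fold change -0.62 ± 0.041, adjusted p = 1.95e-09), and the groups did not overlap. With ponatinib it did not pass (log2 fold change 0.077 ± 0.041, adjusted p = 0.119). Ponatinib calls of both TNF receptors depended on scaling, since Tnfrsf1b passed as lower under median-ratio scaling (-0.15, adjusted p = 0.00605) and quantile normalization (-0.17, adjusted p = 0.00596) and Tnfrsf1a as higher under the second (0.080, adjusted p = 0.0406). Tnfrsf1a also passed when ponatinib and DMSO were fitted alone (adjusted p = 0.0162) or without pyrvinium library 3 (0.0193).

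**Figure D3:**
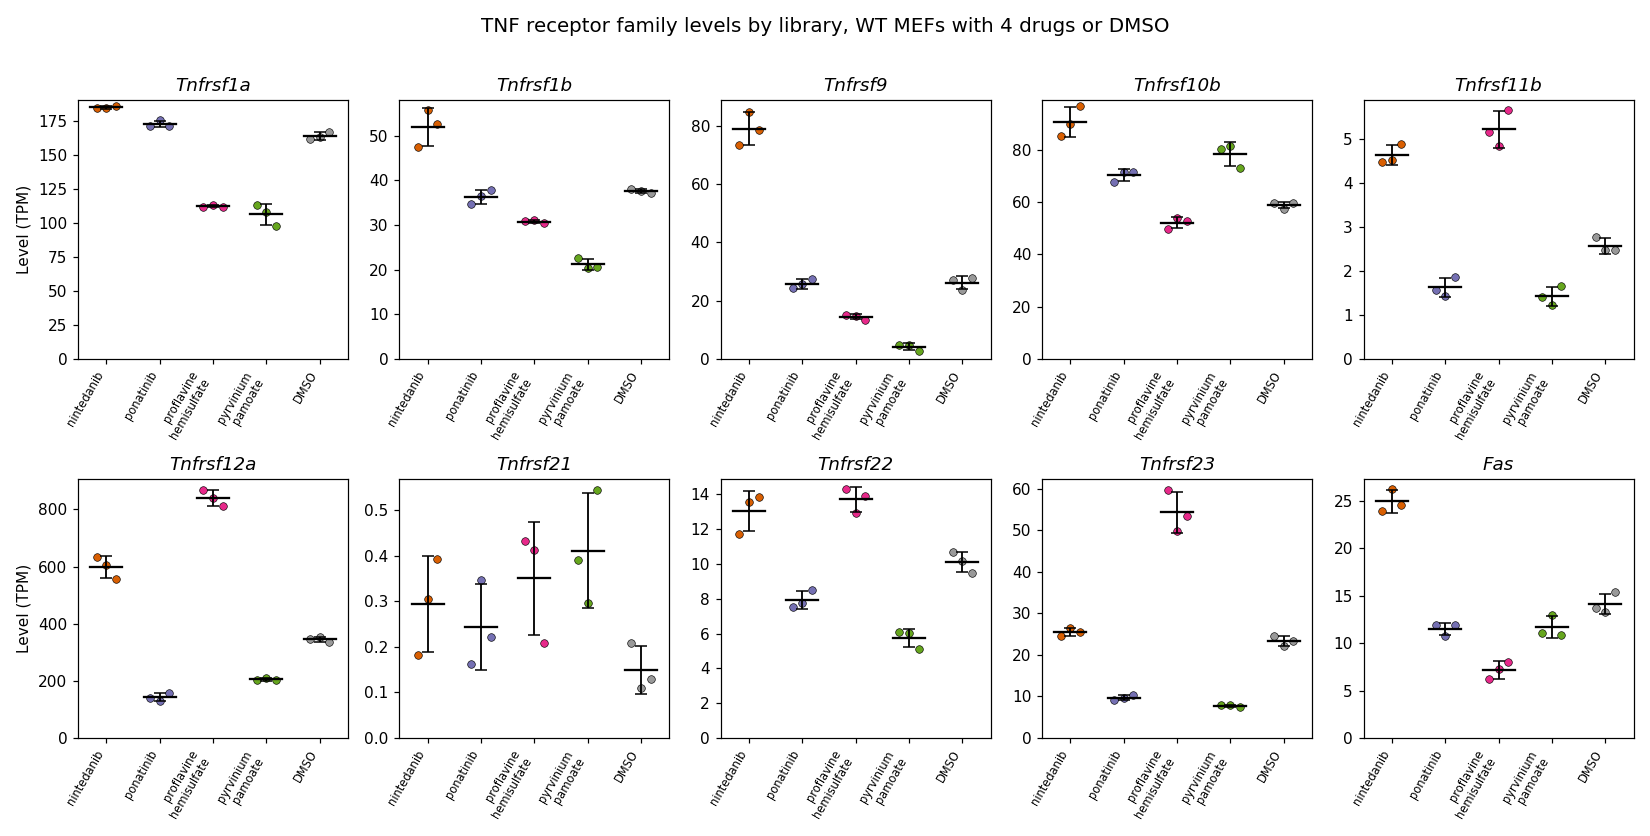
Each panel plots 1 receptor in TPM for the 4 drugs and DMSO in WT MEFs. Points are libraries, the long bar is the mean and the error bars are 1 SD (n = 3). Tnfrsf9 stands at 73.3 to 84.6 TPM in nintedanib and 2.81 to 4.87 TPM in pyrvinium, and Tnfrsf12a at 811 to 868 TPM in proflavine and 130.2 to 157 TPM in ponatinib.

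Tnfrsf12a (Fn14), an inducible receptor that responds to injury and growth factors, was the most abundant receptor in DMSO and changed with all 4 drugs. Proflavine gave 868, 838 and 811 TPM, against 348, 353 and 336 TPM in DMSO (log2 fold change 1.28 ± 0.058, adjusted p = 5.57e-11). Nintedanib gave 632, 604 and 558 TPM (log2 fold change 0.79 ± 0.058, adjusted p = 2.21e-08). With ponatinib it fell to 141, 130.2 and 157 TPM (log2 fold change -1.27 ± 0.058, adjusted p = 1.53e-10), and Tnfrsf1a at 173 ± 2.45 TPM took the first place. Pyrvinium gave 201, 210.0 and 204 TPM (log2 fold change -0.75 ± 0.058, adjusted p = 1.13e-08). The 5 groups did not overlap, in the order proflavine, nintedanib, DMSO, pyrvinium, ponatinib. The 2 kinase inhibitors thus lay on opposite sides of DMSO. The summed level of 5 epithelial markers was 42.7 to 44.6 TPM in proflavine, 18.7 to 22.0 TPM in nintedanib, 6.46 to 7.26 TPM in pyrvinium and 9.93 to 10.5 TPM in ponatinib, against 14.7 to 15.9 TPM in DMSO, most of it Krt18. Their part in the Tnfrsf12a level was not tested.

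The decoy receptors followed the same directions as Tnfrsf12a with ponatinib, proflavine and pyrvinium. Tnfrsf23 had 59.7, 49.8 and 53.4 TPM in proflavine, against 24.4, 22.2 and 23.3 TPM in DMSO (log2 fold change 1.18 ± 0.066, adjusted p = 5.36e-10). It fell to 9.19, 9.60 and 10.3 TPM in ponatinib (log2 fold change -1.19 ± 0.066, adjusted p = 9.96e-10) and to 7.89, 7.88 and 7.34 TPM in pyrvinium (log2 fold change -1.48 ± 0.066, adjusted p = 1.73e-11). With nintedanib it had 24.6, 26.6 and 25.5 TPM and was the single tested receptor that did not pass (log2 fold change 0.13 ± 0.066, adjusted p = 0.111), although all 3 libraries lay above DMSO. Its neighbour Tnfrsf22 changed with all 4 drugs, with log2 fold changes of 0.34 in nintedanib, -0.32 in ponatinib, 0.41 in proflavine and -0.72 in pyrvinium. Tnfrsf11b had 5.17, 4.84 and 5.67 TPM in proflavine and 4.48, 4.52 and 4.90 TPM in nintedanib, against 2.79, 2.47 and 2.47 TPM in DMSO (log2 fold changes 0.80 and 0.66). It fell with ponatinib (log2 fold change -0.45 ± 0.092, adjusted p = 0.000604) and pyrvinium (log2 fold change -0.56 ± 0.092, adjusted p = 4.83e-05).

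**Figure D4:**
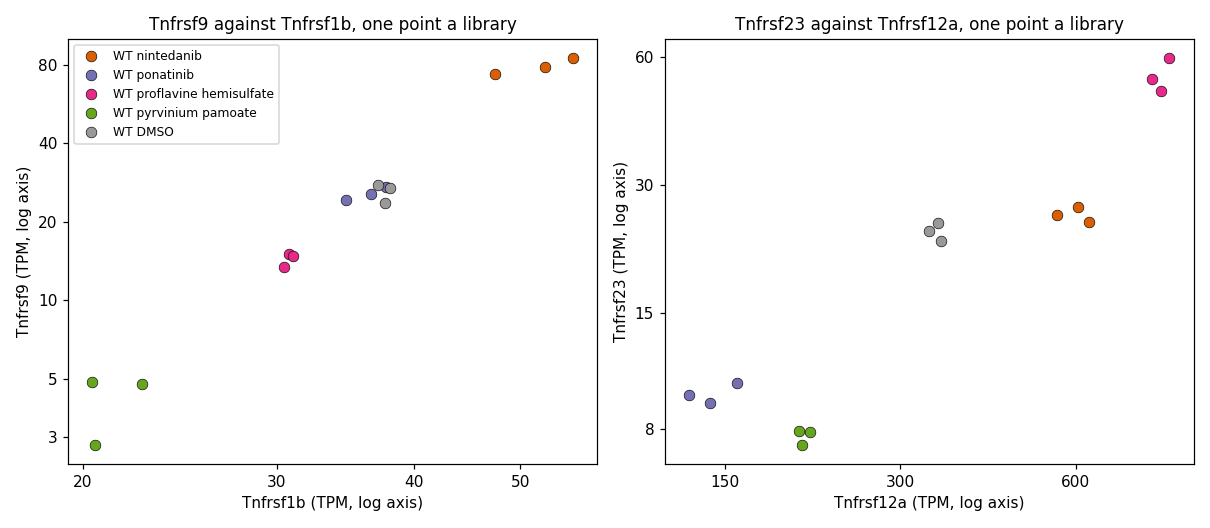
The left panel plots Tnfrsf9 against Tnfrsf1b and the right panel Tnfrsf23 against Tnfrsf12a, in TPM on log axes, with 1 point for each of the 15 drug and DMSO libraries. On the left the proflavine libraries lie below DMSO for both genes, and on the right they lie at the top for both, at 49.8 to 59.7 TPM of Tnfrsf23.

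The death receptors did not share one order. Tnfrsf10b had 85.3, 89.9 and 96.5 TPM in nintedanib, against 59.4, 57.3 and 59.5 TPM in DMSO (log2 fold change 0.61 ± 0.052, adjusted p = 9.92e-08). It also rose with pyrvinium, to 80.3, 81.5 and 73.0 TPM (log2 fold change 0.41 ± 0.052, adjusted p = 3.51e-06), and with ponatinib, to 67.7, 71.4 and 71.6 TPM (log2 fold change 0.25 ± 0.052, adjusted p = 0.000579). It was the only one of the 9 receptors that passed upwards with ponatinib or with pyrvinium. Proflavine gave 49.7, 53.8 and 52.5 TPM (log2 fold change -0.17 ± 0.052, adjusted p = 0.00792), a call that was lost under median-ratio scaling (adjusted p = 0.0657). Fas had 24.0, 26.3 and 24.6 TPM in nintedanib, against 13.7, 13.3 and 15.4 TPM in DMSO (log2 fold change 0.78 ± 0.087, adjusted p = 2.2e-06). It fell to 6.23, 7.23 and 8.04 TPM in proflavine (log2 fold change -0.90 ± 0.087, adjusted p = 2.61e-07). In ponatinib it had 11.9, 10.8 and 11.9 TPM (log2 fold change -0.27 ± 0.087, adjusted p = 0.0127), a call lost without DMSO library 3 (adjusted p = 0.0657) or ponatinib library 2 (0.0571). In pyrvinium it had 11.1, 13.02 and 10.9 TPM (log2 fold change -0.26 ± 0.087, adjusted p = 0.0137), a call lost without DMSO library 3 (adjusted p = 0.0710), pyrvinium library 1 (0.0502) or library 3 (0.0518). Tnfrsf21 had 0.391, 0.296 and 0.545 TPM in pyrvinium, against 0.209, 0.109 and 0.130 TPM in DMSO, too low to be tested.

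Few ligands of the family were expressed by these cells. Of 18 ligand genes, 2 passed the filter on low values in the FPKM experiments (Tnfsf9 and Tnfsf12) and 4 in the drug experiment. Tnf was at most 0.0975 TPM and Fasl, which encodes Fas ligand, at most 0.139 TPM in any drug library, and at most 0.0575 and 0.0480 FPKM in the other libraries. With nintedanib 3 of the 4 tested ligands rose and none fell, with ponatinib 2 rose and 1 fell, with proflavine 2 fell, and with pyrvinium 1 rose and 1 fell. Of all symbols 56.4%, 62.5%, 70.1% and 77.3% were called with these drugs, in the same order, and nothing is read from such counts over 4 genes. Tnfsf9 encodes 4-1BBL, the ligand of Tnfrsf9. It had 2.65, 2.89, 3.17 and 2.80 FPKM with control siRNA in tunicamycin, against 6.58, 6.93, 7.19 and 7.52 FPKM in DMSO (log2 fold change -1.06, adjusted p = 6.27e-11). It fell with tunicamycin in all 4 settings, by 0.65 to 1.27 on the log2 scale. With nintedanib Tnfsf9 had 12.6, 14.2 and 13.2 TPM, against 8.64, 10.1 and 10.4 TPM in DMSO (log2 fold change 0.42, adjusted p = 0.00337). It fell with ponatinib (-0.53) and proflavine (-0.62). Tnfsf12 encodes TWEAK, the ligand of Tnfrsf12a. Tnfsf12 had 47.8, 46.6 and 47.5 TPM in ponatinib and 18.6, 17.9 and 18.9 TPM in proflavine, against 26.5, 30.4 and 31.1 TPM in DMSO (log2 fold changes 0.67 and -0.64). Nintedanib gave 38.2, 41.9 and 40.7 TPM (0.45) and pyrvinium 28.0, 23.4 and 22.6 TPM (-0.24), and all 4 changes passed. Ligand and receptor changed in opposite directions with ponatinib and proflavine and in the same direction with nintedanib and pyrvinium.

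Of 18 other receptors of the family, 7 were tested in the drug experiment. With nintedanib 5 rose and none fell (median log2 fold change 0.53), with ponatinib 4 rose and 1 fell, with proflavine 2 rose and 2 fell, and with pyrvinium 5 rose and 1 fell. In the order of these drugs 56.4%, 62.5%, 70.1% and 77.3% of all symbols were called, and these counts are not read as particular to the family. Cd40, a receptor of antigen-presenting cells that fibroblasts can induce, had 10.1, 10.7 and 10.2 TPM in pyrvinium, against 2.30, 2.38 and 1.47 TPM in DMSO (log2 fold change 1.91, adjusted p = 6.3e-10). Eda2r rose with ponatinib (1.23) and pyrvinium (1.34). In the siRNA and CRISPRa experiments 4 of the 18 were tested, and Cd40 rose with tunicamycin in all 4 settings (0.33 to 0.72). All 5 genes of receptor shedding rose with nintedanib, where 56.4% of all symbols were called, Timp3 (0.64), an inhibitor of metalloproteases, and Adam17 (0.59), the protease that sheds TNF receptors, among them. With tunicamycin Timp3 fell in all 4 settings (-1.39 to -0.85).

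All 27 genes of receptor-proximal adaptors and ubiquitin machinery were tested in every experiment. With nintedanib 9 rose and 3 fell, with ponatinib 8 and 6, with proflavine 9 and 11, and with pyrvinium 9 and 12, where 56.4%, 62.5%, 70.1% and 77.3% of all symbols were called, and their medians (from -0.092 to 0.093) lay near those of all symbols. Traf1, an adaptor of Tnfrsf1b and Tnfrsf9 that is itself induced by NF-kappaB, had 12.98, 13.3 and 14.2 TPM in nintedanib and 12.4, 11.2 and 10.4 TPM in proflavine, against 6.15, 4.59 and 5.04 TPM in DMSO (log2 fold changes 1.22 and 0.99). It had 2.27, 1.61 and 1.88 TPM in ponatinib and 1.18, 1.03 and 0.890 TPM in pyrvinium (-1.097 and -1.61). Tnfaip3, the deubiquitinase A20 that limits NF-kappaB signalling, took the same directions, at 0.61, 1.19, -0.42 and -1.15. Tnfrsf12a, Tnfrsf11b, Tnfrsf22 and Tnfrsf23 had the same sign as both for each drug, though Tnfrsf23 did not pass with nintedanib. With proflavine Tnfrsf9, Tnfrsf1a, Tnfrsf1b, Tnfrsf10b and Fas fell while Traf1 and Tnfaip3 rose. With tunicamycin 8 of the 27 rose and 11 fell with Son siRNA (67.2% of all symbols called), 7 rose and 8 fell with control siRNA (69.0%), 5 rose and 5 fell with the Son sgRNA label (49.4%), and 7 rose and 3 fell with control sgRNA (38.3%). Tab2, a scaffold of the kinase TAK1, rose in all 4 settings (0.47 to 0.74) and Tnfaip3 fell in all 4 (-0.63 to -0.44). Of 16 genes of extrinsic apoptosis and necroptosis 14 were tested, and with nintedanib (56.4% of all symbols called) 4 rose and 3 fell, led by Bid (1.54), which links death receptors to mitochondria, and Casp6 (-0.76), an effector caspase. Casp6 also fell with tunicamycin in all 4 settings (-0.89 to -0.63).

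Over the 15 drug and DMSO libraries, the genes closest to Tnfrsf9 by Pearson's r on log2(TPM + 1) were Tmem176b (0.993), Itgb3 (0.992), Tnfrsf1b (0.991), Ptgr1 (0.989) and Clcn4 (0.984). Over the 16 siRNA libraries they were Mras (0.978), Add1 (0.977), Obfc1 (0.977), Tbl1xr1 (0.973) and Chpf2 (0.973). For Tnfrsf10b they were Chrd (0.984), Slc9a7 (0.981), Fbxl2 (0.980), Cd74 (0.971) and Emp2 (0.969) over the drug libraries, and Cope, Ube2k, Trim3, Zfp414 and Inafm1 (0.930 to 0.941) over the siRNA libraries. The libraries fall into 5 or 4 treatment groups that share their treatment and culture, so each r mostly compares a few group levels. No gene was on both lists of Tnfrsf9 or on both lists of Tnfrsf10b.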

How the data were processed

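Poly-A RNA of 43 MEF libraries was sequenced from stranded kits, per the labels' protocols. The submitters' processing notes name Trimmomatic, Trim Galore, HISAT2, Salmon, Cufflinks and build mm10, without saying which tool made which table. The authors deposited FPKM values for the siRNA and CRISPRa libraries and TPM values for the drug libraries, so levels are not compared between tables. Read totals are unknown from these files, so no counting interval is given. FPKM columns named for a scrambled or non-targeting control were taken as control siRNA and control sgRNA. Those headed Son oe were taken as the Son sgRNA groups. The letters of the FPKM columns are not tied to sample numbers.

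Of the FPKM lines, 27 that held a date or a blank in place of a symbol were dropped. The line of highest mean was kept for a repeated symbol. Within each experiment, symbols with a mean of at least 1 were fitted on log2(value + 1) with limma 3.58.1 (R 4.3.3), using trended variances and all groups of the experiment, in 14 comparisons. Fold changes on this scale understate the change of low genes. P-values were Benjamini-Hochberg adjusted over all tested symbols of a comparison and called below 0.05. The fit was tested on simulated data. The receptors, the 5 gene lists and the markers were chosen with earlier results of these data known. Genes named beyond the 10 receptors were the check gene Son, up to 3 called genes of largest log2 fold change per list and comparison, markers, the 5 genes nearest to Tnfrsf9 and Tnfrsf10b, with their values in other comparisons too, and, chosen after their values were seen, Tnf, Fasl and Camta1. Alternatives were a pseudocount of 0.1, no filter, summed lines, median-ratio scaling, quantile normalization, only the groups compared, a block for replicate letters or numbers, and leaving out each library.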

Additional observations from a re-analysis of the deposited data

Results flagged for a closer look

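Among 40 sets of 4 siRNA libraries (10 receptors in 4 groups), 5 held a library whose gap to the nearest of the others, as a share of the range of its set, exceeded the 95% critical value of Dixon's test for 4 samples. Chance flags about 5 percent of such sets. In Son siRNA cells in tunicamycin, library C was high for Tnfrsf1a (77.8 FPKM). In Son siRNA cells in DMSO, library A was low for Tnfrsf11b (2.47 FPKM) and library B was high for Tnfrsf23 (19.3 FPKM). In control siRNA cells in DMSO, library A was low for Tnfrsf9 (8.48 FPKM) and library C was high for Tnfrsf22 (5.23 FPKM).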

How the results depend on the processing

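Of 2664 alternative values for single receptors none changed sign against a called value, 2618 kept their side of the threshold, 25 lost a call and 21 gained one. Of 296 alternative counts of called receptors, 286 stayed within 1.5 times the reported count. Both totals include the Son siRNA contrasts that chose the genes, and Tnfrsf9 in the other siRNA comparisons. Among the changes in the Son siRNA contrasts were lost calls of Tnfrsf10b in DMSO and gained calls of Tnfrsf22 in tunicamycin. Nothing is read from that part of the totals. The number of receptors with different tunicamycin responses between siRNAs was 1 under quantile normalization. For Son sgRNA against control sgRNA in tunicamycin it was 1 with a replicate block, and 1 to 2 when single libraries were left out, through Tnfrsf10b. Same-lettered or same-numbered libraries seldom deviated together (r over 0.1 in 3 of 24, 1 of 18 and 2 of 30 pairs). With so few libraries in a group, this cannot tell whether they shared a culture or a batch, and the labels do not say. Without a filter on low values Tnfrsf21 entered and 10 of 10 receptors passed with proflavine and with pyrvinium. Median-ratio scaling moved the median of all symbols by -0.10 for ponatinib, and quantile normalization by -0.11 for ponatinib and nintedanib. The share of called symbols that were higher was then 49.5% and 48.4% for ponatinib, against 65.8% as reported, and 47.6% and 41.1% for nintedanib, against 60.8%. With median-ratio scaling the share was 45.2% for Son sgRNA in DMSO (63.3% as reported), 41.9% for Son sgRNA in tunicamycin (27.4%), 48.7% for tunicamycin with control siRNA (38.5%), 49.7% for tunicamycin with control sgRNA (63.2%) and 38.1% for the difference between siRNAs (49.2%). Tnfrsf12a passed for tunicamycin with the Son sgRNA label with the replicate block (adjusted p = 0.0462) and without Son sgRNA library A in DMSO (0.0153), and with control sgRNA in the groups compared alone (0.0436). Tnfrsf10b passed for tunicamycin with control siRNA without DMSO library D (0.0276) or tunicamycin library A (0.0236). The cause of these changes was not tested. Fits limited to the groups compared give no separate value for the 2 differences of responses, which use all groups already.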
